A study of Mus musculus with 9 samples.

Results

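Knockdown of Apela with its first hairpin was compared with a luciferase control in R1E cells, a line of mouse embryonic stem cells. The members are the 3 arrays of cells transduced with shApela_1 and the 3 arrays of cells transduced with shLuc, 6 of the 9 arrays of the series, chosen by their titles. The other 3 arrays carry shApela_2, a hairpin against the same gene. The medium of all 3 groups held 15% fetal bovine serum and leukemia inhibitory factor (1000 units/ml), a cytokine that keeps the cells undifferentiated. No drug was given, so the labels name no difference between the groups other than the hairpin. A hairpin against luciferase has no target in mouse cells and carries the vector and the act of transduction into the control. All cells come from 1 line, and no label tells separate transductions from repeats of 1 culture. The p-values therefore measure the spread of these samples alone, which may be technical. Expression was read from RMA log2 values of Affymetrix arrays for 19938 genes, each by its brightest probe set with 1 gene symbol. A log2 difference below is the shApela_1 mean minus the shLuc mean, and a difference of 1 is a doubling or a halving.

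Apela encodes a short secreted peptide of the apelin receptor pathway and is abundant in embryonic stem cells. The title of the series places its RNA in a feedback loop with p53, the transcription factor that answers DNA damage and can start cell death. A short hairpin RNA is cut by Dicer to a small interfering RNA that leads the RNA-induced silencing complex to matching transcripts. Such a small RNA can also lower other transcripts that match its seed, and the sources used here do not give the hairpin sequences.

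Apela itself was lower on every shApela_1 array. Its log2 level was 11.40, 11.31 and 11.19 with shLuc and 9.76, 9.68 and 9.65 with shApela_1. The groups lay far apart, with 32.9% of the control signal left (log2 difference -1.60, 95% interval -1.78 to -1.43, limma adjusted p = 0.000197). The call held without any 1 of the 9 arrays, with adjusted p-values up to 0.00416. Apln, the other ligand of the receptor, was at 7.14, 7.15 and 7.13 with shLuc and at 7.15, 7.15 and 7.08 with shApela_1. Aplnr, the receptor, was at 6.50, 6.44 and 6.50 and then at 6.41, 6.52 and 6.50, under 7.06, the median of all probe sets, and the groups overlapped for both genes.

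Beyond Apela, the changes were few and mostly under 1.5-fold. In the limma fit of all 9 arrays 67 genes passed an adjusted p of 0.05, 28 higher and 39 lower, which is 0.336% of the genes tested (0.14% higher and 0.196% lower). A second quantile normalization gave 29 higher and 70 lower. Of the 67 genes, 11 changed at least 1.5-fold and 3 at least 2-fold, and the median fold was 1.32. The median rise was 0.34 and the median fall -0.43 on the log2 scale. Genes that fell had a median control level of 9.66 and genes that rose one of 8.37, against 7.27 over all genes. For all 67 genes the shLuc and shApela_1 arrays did not overlap, a pattern that 13.7% of all genes show (8.05% higher and 5.61% lower). For all 67 the 3 numbered pairs also moved the same way, as for 36.9% of all genes. The 67 were chosen by p on these same arrays, so both patterns come largely with the choice.

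**Figure D1:**
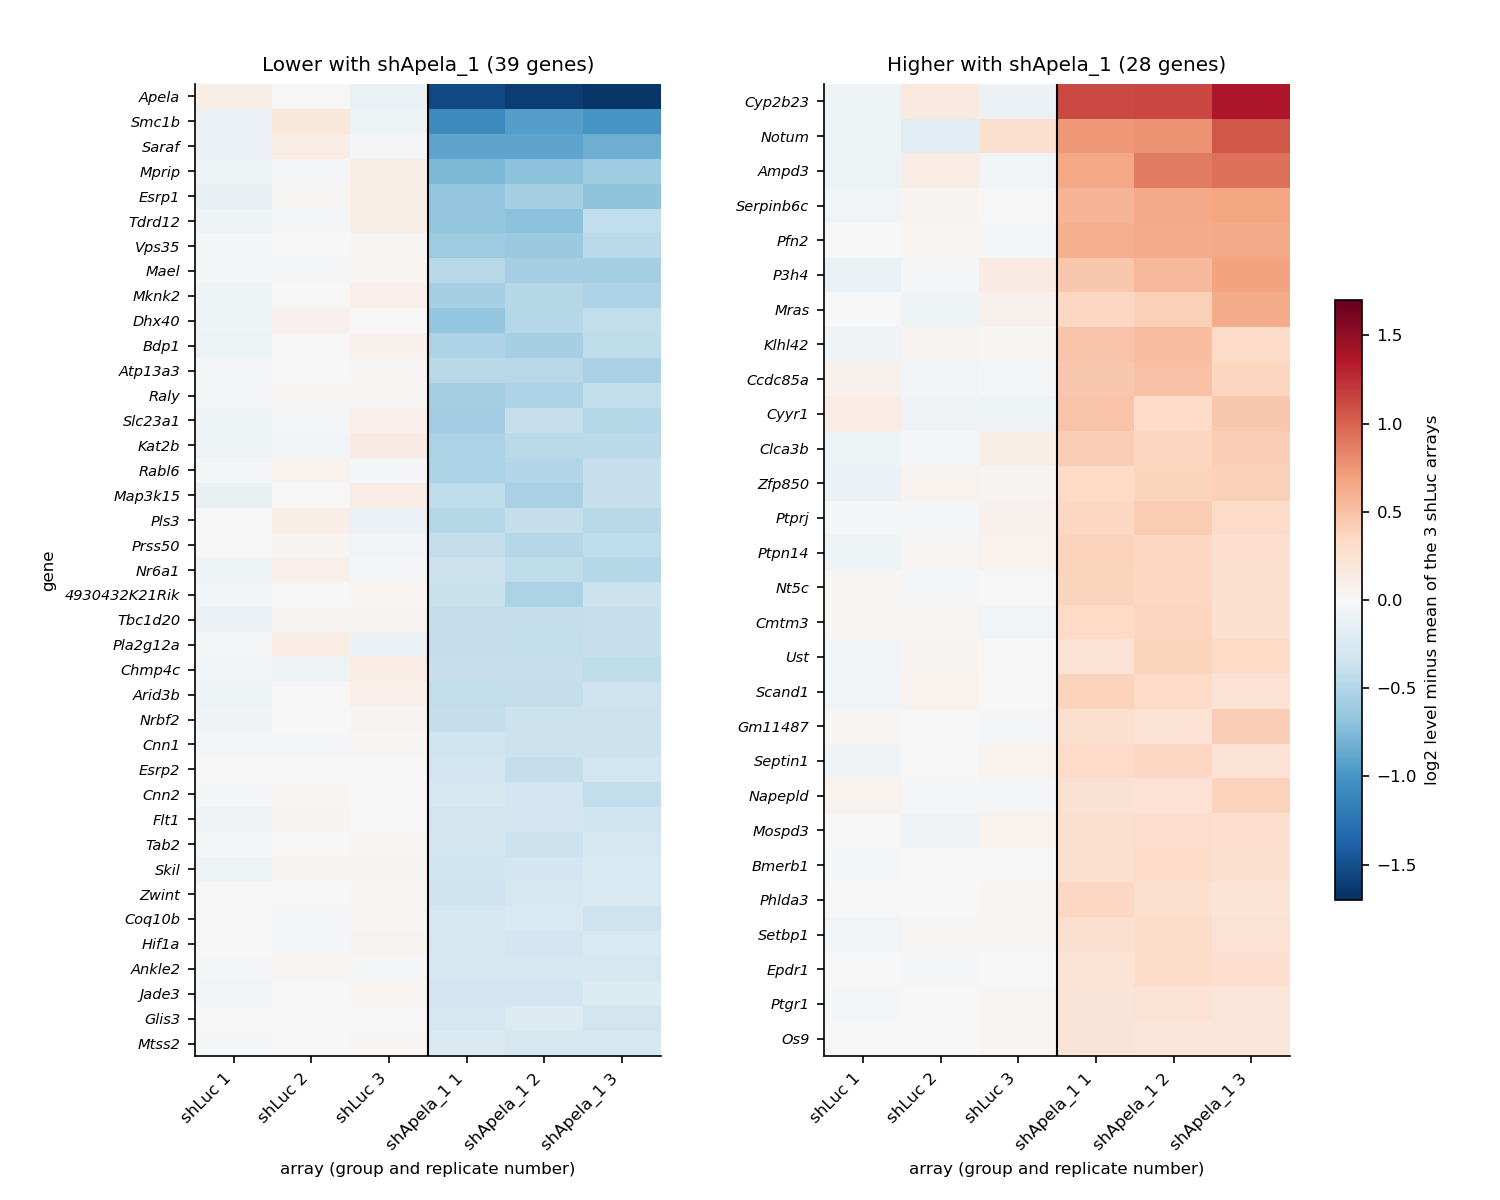
Log2 level of each of the 67 genes past the unpaired test on the 6 compared arrays (columns, by group and replicate number), minus its mean over the 3 shLuc arrays, as colour. Apela stands alone with a difference of -1.60, and most other genes lie within 0.6 of the control.

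The count depended on single arrays and on the pairing of the replicate numbers. Without shLuc 1, 2 or 3 the test called 14, 4 or 20 genes. Without shApela_1 number 1, 2 or 3 it called 4, 3 or 21. Without shApela_2 number 1, 2 or 3, which enter through the shared spread, it called 20, 16 or 146. Only Apela, Cyp2b23 and Atp13a3 kept their call in all 9 of these fits, Mael kept it in 8, and 37 of the 67 genes kept it in just 1. Arrays with the same number in shLuc and shApela_1 deviated together from their group means (correlations of 0.44, 0.401 and 0.684), and a paired test, with the replicate number as a block on the 6 compared arrays, called 695 genes (3.49%), 341 higher (1.71%) and 354 lower (1.78%). It held all 67 genes. The same block on all 9 arrays called 190 (0.953%), 71 higher (0.356%) and 119 lower (0.597%). The paired test leaves 2 residual degrees of freedom, and without the arrays numbered 1, 2 or 3 it called 0, 1 and 0 genes, with 2356, 3155 and 3243 genes at an unadjusted p under 0.05. All 695 genes kept their sign in these fits, but they were chosen on the same pairs, so this is no separate support. Below, "fell" and "rose" refer to the unpaired test unless the paired test is named. Counts of list members past a test are to be read against these shares of all genes.

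**Figure D2:**
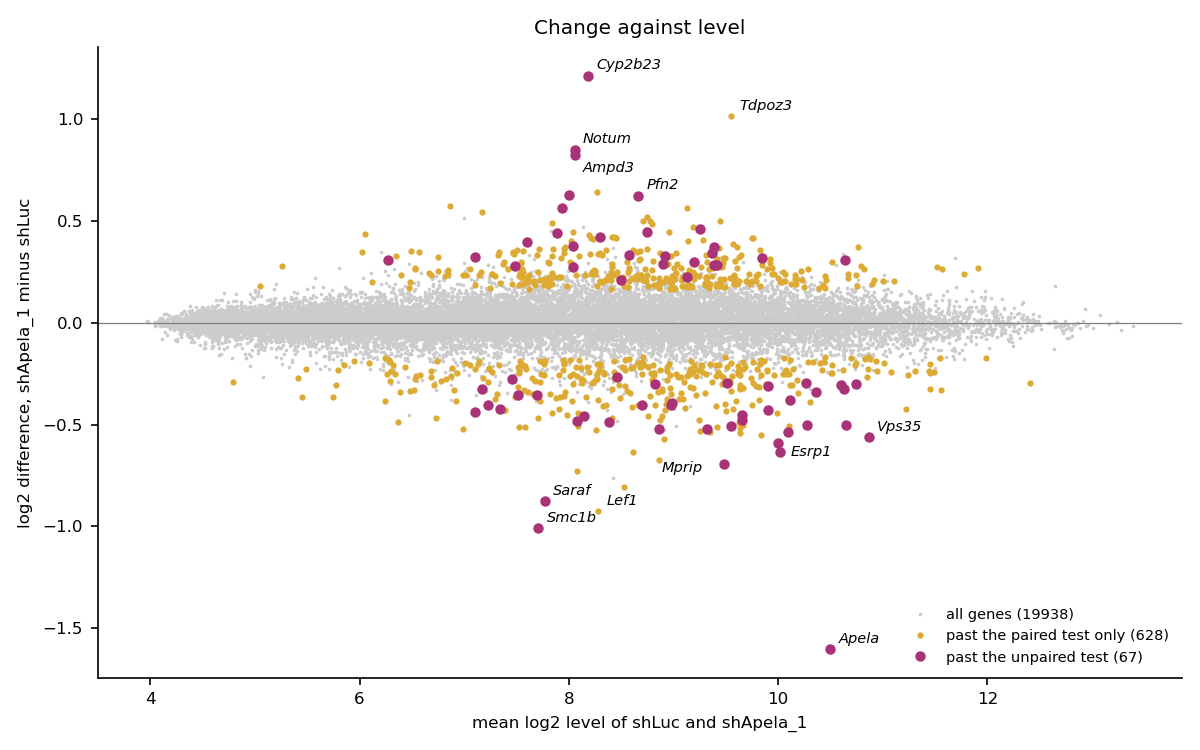
Log2 difference of shApela_1 minus shLuc (vertical) against the mean log2 level of the 2 groups (horizontal), 1 point per gene. The 67 genes past the unpaired test and the 628 past the paired test alone lie above and below 0 across the range of levels, and few exceed 0.6 in size.

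Genes of the germ line, which make sperm and eggs and the meiotic chromosomes, were the first group among the falls. Mouse embryonic stem cells transcribe some of these genes at low levels, while DNA methylation and the PRC1.6 complex, which binds E-box letters in their promoters, hold many of them down. Smc1b, a meiosis-specific cohesin subunit, fell from 8.11, 8.40 and 8.13 with shLuc to 7.12, 7.27 and 7.21 with shApela_1 (log2 difference -1.01 ± 0.16 SE, adjusted p = 0.0494). Tdrd12, a Tudor domain helicase of the piRNA pathway that silences transposons, fell from 10.21, 10.26 and 10.40 to 9.63, 9.60 and 9.87 (-0.59 ± 0.08, adjusted p = 0.0331). Mael, a second piRNA pathway protein, fell from 10.34, 10.34 and 10.40 to 9.89, 9.80 and 9.79 (-0.54 ± 0.04, adjusted p = 0.00501). No shApela_1 array reached any shLuc array for these genes, and all of them were well expressed in the controls. Smc1b and Tdrd12 each kept their call in 2 of the 9 fits that leave out an array, with adjusted p-values up to 0.255 and 0.168. Prss50, a testis protease, and Nr6a1, the germ cell nuclear factor, fell by 0.44 and 0.43.

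Promoter sequences are shown for Smc1b, Mael and Tdrd12, because E-boxes are letters through which PRC1.6 can bind germline promoters. Hormad1, which had the smallest p of the germline genes past the paired test alone, is shown too. Each is the 250 bases before the start of the gene in RefSeq on GRCm38.p6, 5′ to 3′ on the strand of the gene, in lower case with every CACGTG in capitals. CACGTG reads the same on both strands. For Tdrd12 and Hormad1 the first of 2 annotated starts is shown.
Smc1b, chr15:85131958-85132207, minus strand: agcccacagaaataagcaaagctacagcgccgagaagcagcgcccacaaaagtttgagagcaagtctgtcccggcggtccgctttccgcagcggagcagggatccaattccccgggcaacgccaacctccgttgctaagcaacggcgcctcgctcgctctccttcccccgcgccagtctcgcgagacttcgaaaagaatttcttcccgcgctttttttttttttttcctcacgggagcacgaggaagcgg
Mael, chr1:166238745-166238994, minus strand: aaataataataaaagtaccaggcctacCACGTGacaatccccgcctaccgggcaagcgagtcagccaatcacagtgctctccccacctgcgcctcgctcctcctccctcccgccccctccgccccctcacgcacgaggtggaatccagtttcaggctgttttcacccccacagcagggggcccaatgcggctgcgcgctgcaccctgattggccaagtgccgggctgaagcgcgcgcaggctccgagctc
Tdrd12, chr7:35537716-35537965, minus strand: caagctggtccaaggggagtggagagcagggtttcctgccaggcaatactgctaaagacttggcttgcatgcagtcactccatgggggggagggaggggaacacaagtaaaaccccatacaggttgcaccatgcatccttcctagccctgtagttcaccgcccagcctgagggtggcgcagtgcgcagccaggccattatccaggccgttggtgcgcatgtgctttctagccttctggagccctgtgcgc
Hormad1, chr3:95559427-95559676, plus strand: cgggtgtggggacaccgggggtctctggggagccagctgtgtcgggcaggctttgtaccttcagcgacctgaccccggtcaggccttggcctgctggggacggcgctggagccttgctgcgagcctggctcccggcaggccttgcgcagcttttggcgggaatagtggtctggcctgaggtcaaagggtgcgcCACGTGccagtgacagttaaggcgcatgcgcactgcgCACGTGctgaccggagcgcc
Hormad1 has CACGTG 57 and 20 bases before the start and Mael has it 223 bases before, while the letters are not in the windows of Smc1b and Tdrd12. Among all 27025 genes with a RefSeq window, 6.86% held CACGTG, and among the 15614 of these measured here 8.11%. It was in 6 of 12 genes of the meiotic cohesin and synaptonemal complex list, 7 of 16 of the piRNA list, 4 of 17 of the germ cell factors and 1 of 14 of the recombination list. Of the genes that fell 6 of 30 held it, and of those that rose 2 of 22. These are letters in a window, not measured binding, and no letters other than CACGTG were searched.

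In the 4 lists of meiotic, piRNA and germ cell genes, out of 6 germline lists, most members lay below the control, by small amounts. In the cohesin and synaptonemal complex list 11 of 12 measured genes were below their control mean (median log2 difference -0.27), in the recombination list 16 of 19 (-0.09), in the piRNA list 15 of 18 (-0.09) and in the list of germ cell factors and methylation-silenced genes 20 of 23 (-0.13). Over all genes 9057 of 19938 were lower and the median was 0.01. The median of the cohesin list, as a deviation from the shLuc mean, was -0.08, 0.04 and 0.02 on the shLuc arrays and -0.26, -0.29 and -0.11 on the shApela_1 arrays. That of the germ cell factors was -0.07, 0.02 and 0.01 and then -0.19, -0.12 and -0.12, so in both lists every hairpin array lay below every control array. The smallest gap was in the third pair for the cohesin list. The other 2 germline lists lay nearer to 0. In the Rhox homeobox cluster most members, 6 of 8, were also below the control mean (median -0.03), and 1 fell in the paired test. In the Mage family 7 of 15 were below it (0.00), with none past either test.

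**Figure D3:**
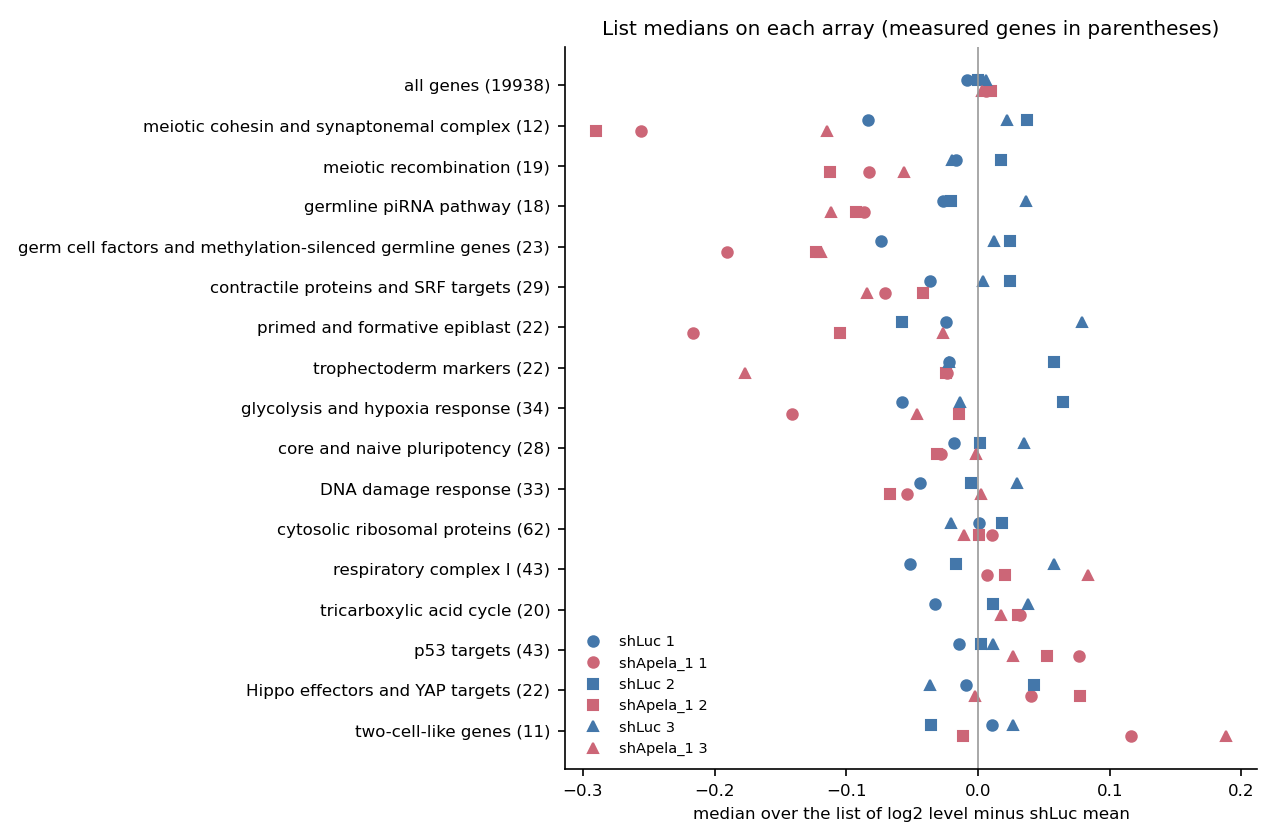
Median over each gene list of the log2 level minus the shLuc mean (horizontal), on each shLuc array (blue) and shApela_1 array (red), with the shape giving the replicate number and the count of measured genes in parentheses. The 4 lists of meiotic, piRNA and germ cell genes lie left of 0 on all 3 shApela_1 arrays, down to -0.29, while all genes stay within 0.01 of 0.

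The paired test called 18 genes over the 4 lists of meiotic, piRNA and germ cell genes, all lower, where 1.78% of all genes fell in it. The lists were written with earlier results of these data known, so this describes them and tests nothing. The same block on all 9 arrays called fewer. It gave 2 in the cohesin list, 0 in the recombination list, 3 in the piRNA list and 2 among the germ cell factors. In the cohesin and synaptonemal complex list the paired test called 5 of 12. Hormad1, which marks unpaired meiotic chromosome axes, was at 8.75, 8.86 and 9.18 with shLuc and at 8.17, 8.23 and 8.49 with shApela_1 (-0.64, paired adjusted p = 0.00651, unpaired 0.161). Hormad2 differed by -0.36, Syce1, of the synaptonemal complex, by -0.37, and Stag3, another meiotic cohesin subunit, by -0.40. Hormad1 and Stag3 did not overlap between the groups, whereas Hormad2 and Syce1 did and were lower within each pair. Sycp3, an axis protein, was at 9.39, 9.51 and 8.94 and then at 8.87, 8.73 and 8.73 and did not pass. In the recombination list 4 of 19 passed the paired test. Meioc, which keeps germ cells in meiotic prophase, was at 9.01, 9.22 and 8.57 with shLuc and at 8.16, 8.14 and 8.09 with shApela_1 (-0.80, paired adjusted p = 0.0284, unpaired 0.3). Mlh3 (-0.25), Tex11 (-0.34) and Meiob (-0.29) were the others. With the block on all 9 arrays their limma adjusted p-values were 0.223, 0.381 and 0.712. Tex11 and Meiob were dim, with means under 7.06, the median of all probe sets.

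The piRNA list gave 5 of 18 in the paired test. Besides Mael and Tdrd12 these were the helicase Mov10l1 (-0.45), the helicase Ddx4 (-0.24), a standard marker of germ cells, and the Piwi protein Piwil2 (-0.21). Of the germ cell factors 4 of 23 passed it. Zcwpw1, a reader of histone marks at meiotic breaks, was at 8.27, 8.25 and 8.80 with shLuc and at 7.71, 7.50 and 7.93 with shApela_1 (-0.73, paired adjusted p = 0.0124, unpaired 0.18), and the groups did not overlap. Tex19.1 (-0.43), Stk31 (-0.33) and Cyct (-0.25) were lower by less, and Stk31 and Cyct were dim as well. None of the 16 genes of PRC1.6 and other germline repressors passed either test, where 3.49% of all genes passed the paired one. Of these 16 genes 9 lay above and 7 below the control mean, and their median was 0.02. Among DNA methylation genes Mbd2 rose in the paired test (0.30, paired adjusted p = 0.0192), while the cofactor Dnmt3l (-0.24) and the methyltransferase Dnmt3b (-0.19) fell in it.

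**Figure D4:**
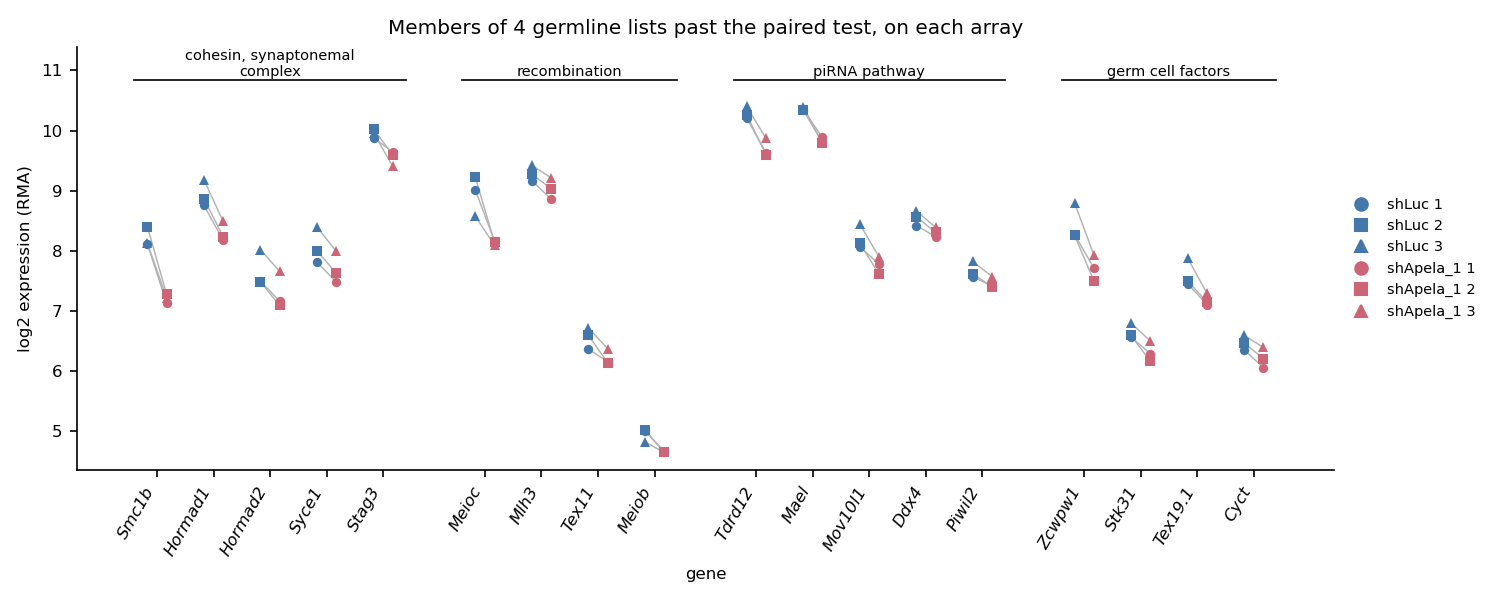
Log2 expression (vertical) on each shLuc array (blue) and shApela_1 array (red) of the 18 genes of those 4 lists past the paired test, by list, with grey lines joining arrays of the same replicate number. Every line slopes down, and the third pair often lies above the others in both groups.

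Several proteins that contract or bind actin fell, while regulators of actin assembly were split. Mprip, which brings myosin phosphatase to actin filaments, went from 9.74, 9.80 and 9.94 with shLuc to 9.06, 9.13 and 9.22 with shApela_1 (-0.69 ± 0.06, adjusted p = 0.00814). The calponins, which bind actin and restrain myosin, fell too. Cnn1 was at 7.67, 7.68 and 7.73 and then at 7.36, 7.32 and 7.33 (-0.35 ± 0.05, adjusted p = 0.0331), and Cnn2 was at 10.50, 10.55 and 10.54 and then at 10.26, 10.20 and 10.11 (-0.34 ± 0.05, adjusted p = 0.0348). In the list of contractile proteins and targets of serum response factor, 26 of 29 genes were below the control mean (median -0.07). The paired test added Acta2, smooth muscle actin (-0.67), and the myosin light chain Myl9 (-0.53). Acta2 varied among the controls from 8.95 to 9.56 and overlapped between the groups. Pls3, an actin bundler, fell by 0.45 and Mtss2, which bends membranes at actin sites, by 0.27. Pfn2, a profilin that feeds actin assembly, went the other way, from 8.35, 8.38 and 8.31 to 8.95, 8.97 and 9.0 (0.63 ± 0.07, adjusted p = 0.0207). It was the only one of 35 actin assembly regulators to pass either test. Of these 18 were above and 16 below the control mean, with a median of 0.00. Smooth muscle genes are also fibroblast genes: the summed linear signal of 21 fibroblast feeder markers was 6419 to 7006 with shLuc and 6792 to 7246 with shApela_1, while 15 of the 21 were below their control mean (median -0.02). In the paired test 2 of them fell, Acta2 and Thbs1 (-0.41), and Vim rose (0.27), and the part of such cells in these values was not tested.

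The splicing regulators of epithelial cells fell, while epithelial genes as a list were split between higher and lower. Esrp1 went from 10.21, 10.35 and 10.45 with shLuc to 9.68, 9.77 and 9.65 with shApela_1 (-0.64 ± 0.06, adjusted p = 0.0104). Its paralog Esrp2 went from 7.86, 7.88 and 7.88 to 7.55, 7.47 and 7.54 (-0.35 ± 0.04, adjusted p = 0.0173). Of 35 epithelial adhesion and tight junction genes 18 were above and 17 below the control mean, with a median of 0.00. The paired test added the epithelial transcription factor Grhl3 (-0.42) and the desmosome proteins Pkp2 (-0.25) and Dsp (-0.25). Keratins split: Krt8 was at 9.79, 10.03 and 9.81 and then at 9.39, 9.63 and 9.13 (-0.49), Krt18, its partner, differed by -0.46, and Krt17 rose in the paired test from 8.31, 8.51 and 8.55 to 8.75, 9.02 and 9.11 (0.50). Krt8, Krt18 and Dsp also stand in the trophectoderm list, the outer layer of the blastocyst, where 19 of 22 genes were below the control mean (median -0.07) and Ascl2 (-0.33) passed the paired test as well. The summed trophectoderm signal was 7015 to 8211 with shLuc and 6118 to 6867 with shApela_1, and its part in the keratin values was not tested. The list median on the third shApela_1 array was -0.18 and on the other two -0.02, a level that shLuc arrays also had.

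Markers of the stem cells themselves stayed high. All 11 embryonic stem cell markers lay above the median probe set, between 10.12 and 12.82 in the controls. Their summed signal was 40228 to 41179 with shLuc and 39310 to 39977 with shApela_1, a little lower and without overlap. Pou5f1 was at 11.99, 12.05 and 12.18 and then at 11.92, 12.02 and 12.09, and Nanog at 12.28, 12.24 and 12.32 and then at 12.35, 12.33 and 12.31. Both overlapped between the groups. Of 28 core and naive pluripotency genes 18 were below the control mean (median -0.04), and the list medians on the arrays overlapped between the groups. In this list Lin28a, which blocks let-7 processing, fell in the paired test (-0.44, paired adjusted p = 0.0099, unpaired 0.064) and Tbx3 rose in it (0.20). Genes of the primed epiblast, the state after implantation, lay lower: 18 of 22 were below the control mean, with a median of -0.14. No primed gene passed the unpaired test, and the paired test called 7 lower and 1 higher. Lef1, a Wnt transcription factor, was at 8.40, 8.66 and 9.18 with shLuc and at 7.24, 7.92 and 8.30 with shApela_1 (-0.93, paired adjusted p = 0.0124, unpaired 0.374). Fgf5, a growth factor of the primed state, was at 7.92, 7.88 and 8.03 and then at 7.53, 7.45 and 7.44 (-0.47). Car4 (-0.55), Krt18, Pim2 (-0.26), Dnmt3b and Slc7a7 (-0.18) were the others lower, and Zic2 (0.26) was higher. The median of the list was -0.02, -0.06 and 0.08 on the shLuc arrays and -0.22, -0.10 and -0.03 on the shApela_1 arrays, so the third shApela_1 array overlapped the controls.

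Targets of p53, the theme of the series title, leaned upward by little. Of 43 measured targets 30 were above the control mean (median 0.06), against 10858 of 19938 genes, and 2 passed the unpaired test. Phlda3, an inhibitor of Akt, rose from 9.26, 9.26 and 9.28 with shLuc to 9.62, 9.54 and 9.50 with shApela_1 (0.28 ± 0.04, adjusted p = 0.0385). Ptpn14, a phosphatase that restrains YAP, rose from 9.12, 9.21 and 9.25 to 9.59, 9.55 and 9.48 (0.34 ± 0.05, adjusted p = 0.0367). Both calls held in 1 of the 9 fits that leave out an array, with adjusted p-values up to 0.198. The paired test added Btg2 (0.34), Perp (0.27), Ddit4l (0.21) and Zmat3 (0.18), all 4 higher. With the block on all 9 arrays these 4 did not pass (limma adjusted p = 0.0803, 0.0967, 0.129 and 0.176). Mdm2, the ubiquitin ligase of p53, was at 10.94, 11.04 and 10.89 and then at 11.15, 11.09 and 10.97, with overlap. The list median was -0.01, 0.00 and 0.01 on the shLuc arrays and 0.08, 0.05 and 0.03 on the shApela_1 arrays. Trp53 and Cdkn1a had no probe set with 1 symbol and were not analysed here.

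Cell death genes were split between higher and lower, and the few past the paired test were higher. These were 1 BCL2 family gene and 2 of the caspases and death receptors, beside 1.71% of all genes. The BCL2 family had 9 of 18 genes above the control mean (median 0.00), and caspases and death receptors 14 of 26 (0.01), with no call in the unpaired test. The paired test called Casp8, the initiator caspase of death receptors, from 6.56, 6.69 and 6.48 to 7.18, 6.95 and 7.31 (0.58, paired adjusted p = 0.048, unpaired 0.0716), its inhibitor Cflar (0.24) and the pore former Bak1 (0.23). With the block on all 9 arrays Casp8, Cflar and Bak1 did not pass (limma adjusted p = 0.0717, 0.187 and 0.164). Casp8 was dim in the controls, under the median of all probe sets (7.06), and was not in the fit that left dim genes out. Of 33 DNA damage response genes 22 were below the control mean (median -0.03), and Atr (-0.25) and Xrcc5 (-0.24) fell in the paired test.

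**Figure D5:**
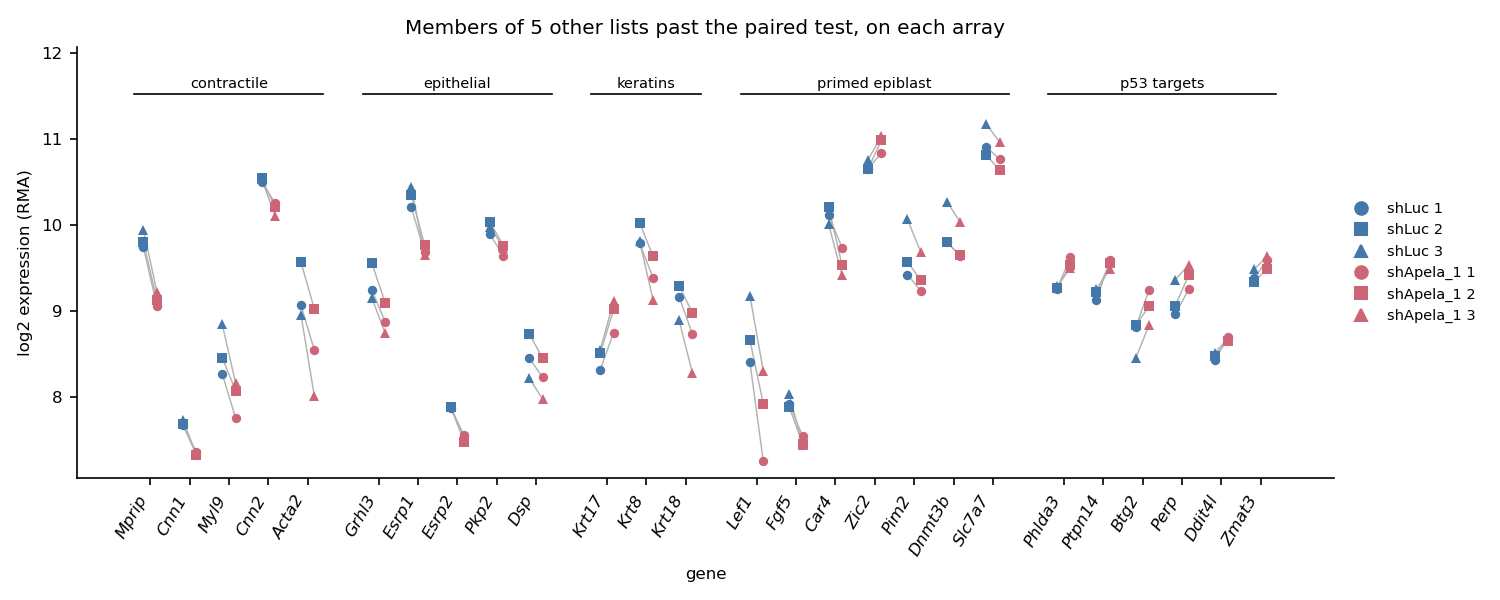
Log2 expression (vertical) on each shLuc array (blue) and shApela_1 array (red) of genes of 5 other lists past the paired test, with grey lines joining arrays of the same replicate number. Contractile and primed epiblast genes other than Zic2 slope down, the 6 p53 targets slope up, and Acta2 and Lef1 spread most within a group.

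Signalling genes passed the unpaired test one by one, and some signalling lists leaned upward by little. Of 22 Hippo effectors and YAP targets 17 were above the control mean (median 0.06), against 10858 of 19938 genes. Ptpn14 was the only one past the unpaired test, and the paired test called 2, both higher. The list median was -0.01, 0.04 and -0.04 on the shLuc arrays and 0.04, 0.08 and -0.002 on the shApela_1 arrays, which overlap. Notum, a secreted enzyme that inactivates Wnt proteins, rose from 7.55, 7.44 and 7.90 with shLuc to 8.37, 8.39 and 8.68 with shApela_1 (0.85 ± 0.13, adjusted p = 0.0494). In the list of Wnt feedback genes and targets 13 of 19 were above the control mean (median 0.03), and Ccnd1 (0.28), Bambi (0.23) and Apcdd1 (0.21) rose in the paired test while Lef1 fell in it. Mras, a Ras-like GTPase, rose from 9.03, 8.95 and 9.09 to 9.38, 9.43 and 9.66 (0.46 ± 0.07, adjusted p = 0.0494), and its other probe set gave 0.49. Of 26 Ras family GTPases the paired test called 4, all higher, where 1.71% of all genes rose in it: Mras, Rerg (0.30), Rap2b (0.24) and Rasl11b (0.22). Among integrins, the receptors for extracellular matrix, Itgb5 (0.33), Itgav (0.31) and Itga5 (0.21) rose in the paired test, 3 of 31 beside 1.71% of all genes. The laminin Lama1 (0.31) rose in it too. The receptor phosphatase Ptprj rose by 0.37 in the unpaired test. Skil, which holds back SMAD factors, fell from 9.97, 10.10 and 10.10 to 9.72, 9.72 and 9.80 (-0.31 ± 0.05, adjusted p = 0.0472). Tab2, an adaptor of the kinase TAK1, fell by 0.32, Map3k15 by 0.46, and the VEGF receptor Flt1 by 0.33. Mknk2, a kinase of the cap-binding protein eIF4E, fell from 9.05, 9.11 and 9.20 to 8.55, 8.64 and 8.60 (-0.52 ± 0.06, adjusted p = 0.0134).

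Among genes of membrane traffic and transport several fell one by one, while most traffic lists leaned higher by little. Saraf, which shuts store-operated calcium entry, fell from 8.10, 8.33 and 8.19 to 7.30, 7.31 and 7.38 (-0.88 ± 0.09, adjusted p = 0.0134), alone among 16 genes of store-operated and endoplasmic reticulum calcium handling. Vps35, the core of the retromer that recycles proteins from endosomes, fell from 11.13, 11.14 and 11.17 to 10.54, 10.52 and 10.69 (-0.56 ± 0.05, adjusted p = 0.00851). Snx5, a retromer partner, fell in the paired test (-0.33), whereas the median of the 25 retromer and sorting genes was 0.05. Atp13a3, a polyamine transporter, fell from 10.88, 10.89 and 10.92 to 10.42, 10.42 and 10.34 (-0.50 ± 0.04, adjusted p = 0.00496), and its dimmer probe set gave -0.90. The vitamin C transporter Slc23a1 fell from 8.55, 8.61 and 8.72 to 8.04, 8.24 and 8.14 (-0.49 ± 0.06, adjusted p = 0.0281). It was the only one of 356 solute carriers past the unpaired test, which 0.336% of all genes passed. Amino acid carriers Slc7a1 (-0.37), Slc1a4 (-0.24) and Slc7a7 fell in the paired test, 3 of 19 beside 1.78% of all genes, and the list median was -0.03. Nrbf2, of the autophagy lipid kinase, fell by 0.38, the ESCRT protein Chmp4c by 0.40, the Rab regulator Tbc1d20 by 0.40 and the Rab-like Rabl6 by 0.48. These lists leaned the other way by little: 39 of 58 Rab GTPases (median 0.02), 15 of 22 lysosomal genes (0.04) and 20 of 30 autophagy genes (0.02) were above the control mean. Over all genes 10858 of 19938 were (0.01), and of Golgi structure and vesicle coat genes 17 of 32 (0.00). The autophagy median changed sign among the fits that leave out an array (-0.002 to 0.039). In the paired test the dim Rab38 (0.33), Rab31 (0.27) and Rab21 (0.24) rose and Rab8b (-0.28) fell, and Ctsb (0.27) rose and Npc1 (-0.30) fell.

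RNA-binding genes fell singly, with the medians of their families near 0. Raly, an hnRNP, fell from 10.50, 10.55 and 10.55 to 9.97, 10.01 and 10.11 (-0.50 ± 0.05, adjusted p = 0.00814), the only call among 20 hnRNP genes, whose median was 0.00. Dhx40, a helicase, fell from 9.50, 9.66 and 9.58 to 8.92, 9.10 and 9.16 (-0.52 ± 0.07, adjusted p = 0.0367). Of 51 DEAD and DEAH box helicases 32 were below the control mean, and the paired test called 6, all lower: Dhx40, Ddx58 (-0.34), the dim Ddx60 (-0.27), Ddx19b (-0.27), Ddx4 and Ddx10 (-0.17). Bdp1, a subunit of the RNA polymerase III initiation factor, fell by 0.51. No gene of the 51 spliceosome proteins or the 77 mitochondrial ribosomal proteins passed either test, and the median of 62 cytosolic ribosomal proteins was 0.00.

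Among regulators of transcription, Hif1a, the oxygen-sensitive factor of the hypoxia response, fell from 10.89, 10.86 and 10.94 to 10.59, 10.56 and 10.63 (-0.30 ± 0.05, adjusted p = 0.0494). Of 34 glycolysis and hypoxia response genes 29 were below the control mean (median -0.07). The glucose transporter Slc2a1 fell in the paired test from 12.50, 12.59 and 12.58 to 12.15, 12.32 and 12.31 (-0.30), and so did the mitophagy receptor Bnip3 (-0.19). The median of the list was -0.06, 0.06 and -0.01 on the shLuc arrays and -0.14, -0.01 and -0.05 on the shApela_1 arrays, which overlap. The acetyltransferase Kat2b fell by 0.48, Arid3b by 0.39, Jade3, of a histone acetylation complex, by 0.29 and Glis3 by 0.28. Zfp850 rose from 7.75, 7.91 and 7.89 to 8.20, 8.23 and 8.25 (0.38 ± 0.05, adjusted p = 0.0348). It was 1 of 317 Zfp genes to pass, beside 0.336% of all genes. Scand1 (0.32) and Setbp1 (0.28) rose as well. The kinetochore protein Zwint and the nuclear envelope protein Ankle2 fell by 0.31 and 0.30. Of 30 G2 and mitosis genes none passed the unpaired test, and Cenpf (-0.25) fell in the paired one.

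Enzymes held the largest rise. Cyp2b23, a cytochrome P450, rose from 7.51, 7.74 and 7.48 with shLuc to 8.70, 8.72 and 8.95 with shApela_1, 2.32-fold (1.21 ± 0.10, adjusted p = 0.00501). The other 4 Cyp2b genes measured, including Cyp2b10 (0.12), did not pass. Ampd3, which turns AMP to IMP, rose from 7.56, 7.77 and 7.60 to 8.30, 8.53 and 8.58 (0.83 ± 0.12, adjusted p = 0.0367), and Nt5c, a nucleotidase, rose by 0.33. The median of 25 purine nucleotide genes was 0.00. The protease inhibitor Serpinb6c rose from 7.64, 7.74 and 7.69 to 8.26, 8.33 and 8.36 (0.63 ± 0.08, adjusted p = 0.0233), and its relative Serpinb6a rose in the paired test (0.19). Genes of these families resemble each other, and probe positions were not used here, so signal from a relative cannot be told apart. P3h4, a partner of collagen lysine hydroxylation, rose from 7.54, 7.63 and 7.79 to 8.11, 8.20 and 8.33 (0.56 ± 0.08, adjusted p = 0.0348). The adaptor of a cullin ligase Klhl42 rose from 8.47, 8.56 and 8.54 to 9.01, 9.05 and 8.85 (0.45 ± 0.06, adjusted p = 0.0385). Ptgr1 (0.22), Napepld (0.30), the sulfotransferase Ust (0.32) and Os9, of protein quality control in the endoplasmic reticulum (0.21), rose by less, and Pla2g12a and Coq10b fell by 0.40 and 0.30. Energy metabolism stayed near the control: 18 of 20 genes of the tricarboxylic acid cycle were above it, but by a median of 0.03, and 31 of 43 of respiratory complex I by 0.04, with no call in the unpaired test. Sucla2, of succinyl-CoA synthetase, fell in the paired test (-0.29). The fatty acid enzymes Acly (-0.23) and Acaca (-0.23) fell in the paired test.

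Two-cell-like genes, switched on in a rare state that resembles the cleavage embryo, included the largest change among genes past the paired test alone. Tdpoz3 was at 9.19, 9.01 and 8.91 with shLuc and at 10.31, 9.97 and 9.87 with shApela_1 (1.02, paired adjusted p = 0.00527, unpaired 0.168), and the groups did not overlap. Tdpoz2 rose in the paired test too (0.35), and copies of this gene family are near-identical. The summed signal of the 11 measured two-cell-like genes, Tdpoz3 among them, was 4125 to 4479 with shLuc and 4673 to 5090 with shApela_1. Without Tdpoz3 the sums overlapped, at 3610 to 3998 and 3668 to 4123. Of all 11 measured genes, Tdpoz3 included, 9 were above their control mean (median 0.09). The list names 25 genes, so most of it was not measured. Imprinted genes split, with a median of -0.01 over 28 and 4 calls each way in the paired test. Ndn (0.33), Plagl1 (0.34), Nnat (0.29) and Mest (0.21) rose in it, and Igf2 (-0.51), Peg3 (-0.50), Ascl2 and Peg10 (-0.17) fell in it. Ndn was at 8.84, 8.81 and 8.78 with shLuc and at 9.21, 9.10 and 9.10 with shApela_1. Peg3 was at 9.84, 10.05 and 9.85 and then at 9.32, 9.52 and 9.39, again with no overlap. Among genes of no list, Erbin (0.50), Mbnl1 (0.52), Smyd1 (0.44), Haus1 (-0.53) and Noc3l (-0.51) had some of the smallest paired p-values.

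With the second hairpin most of the 67 genes lay near the control. Apela itself differed from shLuc by -1.58 with shApela_2, and 45 of the other 66 genes lay within 0.1 of shLuc. The difference between the hairpins passed limma's test for 49 of the 67 genes, and for 0.948% of all genes, but the 67 were chosen on the shApela_1 arrays that also enter this difference, and both hairpins share the shLuc arrays. Cyp2b23 differed from shLuc by 1.21 with shApela_1 and by 0.05 with shApela_2 (adjusted p of the hairpin difference 0.0044). Smc1b differed by -1.01 and 0.33 (0.0107), Saraf by -0.88 and 0.01 (0.00823), Mprip by -0.69 and 0.03 (0.0044), and Mael by -0.54 and -0.08 (0.00596). For 18 genes the hairpin difference did not pass. Besides Apela (0.906) these include Notum, at 0.85 and 0.32 (0.131), Septin1, at 0.31 and 0.27 (0.699), Bmerb1, at 0.28 and 0.23 (0.554), and Kat2b, at -0.48 and -0.24 (0.218). Apela was the only one of the 67 genes past the threshold with both hairpins.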

How the data were processed

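The deposited log2 expression values give 1 number for each probe set on each array. The authors made them with RMA in Partek 6.6, per the submitters' processing notes. No source states the log base, and the range of values fits base 2. RMA corrects background and quantile-normalizes, so a change of total RNA cannot be seen. Depth has no counterpart on arrays, and their number limits the precision. Array medians lay between 7.03 and 7.12, the highest on shApela_2 number 3. The interquartile range was 3.29 on that array and 3.50 to 3.59 on the others. Without that array the main fit called 146 genes, and the part of its distribution in this count was not tested. Of 28853 probe sets, 21775 had 1 gene symbol in GEO's platform annotation, 1578 several and 5500 none; RefSeq names (GRCm38.p6) were matched for 21684.

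The test was limma 3.58.1 under R 4.3.3 (lmFit, then eBayes, two-sided). A single fit took all 9 arrays (6 residual and 2.72 prior degrees of freedom), with Benjamini-Hochberg adjustment over 19938 genes at 0.05. Every adjusted p in the text comes from limma; SE is limma's standard error. The paired test adds the replicate number as a block on the 6 compared arrays (2 residual and 3.72 prior degrees of freedom). The pairing comes from correlated deviations in the data alone; the labels state no shared batch. The script was tested on simulated data.

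The 88 gene lists (3 to 356 measured genes, 2998 genes in all) were described by counts and medians without a test. The members and lists were chosen with earlier results of these data known. Summed marker signals are sums of 2 to the power of the log2 value. Every gene past the threshold could be named, predicted genes and clones only counted. Per-array values are given for Apela, the 8 largest rises and falls, and list members past the threshold. Up to 3 members of a list that did not pass, list members past the paired test, and up to 5 other such genes in each direction by p could be named too. Mdm2, Pou5f1, Nanog, Apln, Aplnr and Cyp2b10 were added after their values were seen.

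Alternatives were the block on all 9 arrays, only the compared arrays, a robust prior with an intensity trend, a filter on dim genes, a second quantile normalization, centring, other uses of probe sets, and leaving out each array. A fit of only arrays numbered 1 and 2, and the paired test without each number, were chosen after seeing the data.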

Additional observations from a re-analysis of the deposited data

How the results depend on the processing

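All 67 genes kept their direction in every alternative that held them, the fit without dim genes holding 65. They were chosen on these same arrays, so this is no separate support. Apela lay between -1.55 and -1.66 throughout. The counts moved. With the replicate number as a block, the fit of all 9 arrays called 190 genes (71 higher, 119 lower; 65 of the 67 kept, without Kat2b and Napepld) and the fit of the 6 compared arrays called 695 (341 and 354; 67 kept). That paired test called 0 to 1 genes, 0 higher and 0 to 1 lower, when 1 number was left out, and Apela (-1.59 to -1.63) then had adjusted p-values of 0.0475 to 0.0791. The 6 compared arrays without the block gave 44 genes (15 higher; 31 of the 67 kept). The intensity trend with a robust prior gave 37 (9 higher; 33 kept). Centred array medians gave 31 (10 higher, 21 lower; 31 kept), and the second quantile normalization 99 (70 lower; 52 kept). The arrays numbered 1 and 2 alone gave 249 (109 higher, 140 lower). Leaving out each array in turn gave 3 to 146 genes (1 to 69 higher, 2 to 77 lower), and 10 to 47 of the 67 genes with a hairpin difference. Dim genes left out gave 82 genes, averaged probe sets 74 and every probe set 63. The cause of these movements was not tested. The medians of the meiotic cohesin, recombination, piRNA, germ cell factor, contractile, primed epiblast, trophectoderm, glycolysis, p53, tricarboxylic acid cycle and complex I lists kept their sign in every alternative, while those of the Rhox cluster (-0.15 to 0.01) and the Mage family (-0.02 to 0.01) did not. Genes near the background are measured less well: 2 of the 67 genes lay below the median probe set in shLuc.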
